A study of Homo sapiens with 4 samples.

Results

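The genes examined here encode proteins stored in, or packed into, the granules of myeloid cells: MPO, ELANE, PRTN3, AZU1, CTSG, LYZ, SRGN, CFD, RNASE2 and RNASE3. They were taken from the table of 23622 genes by matching each Ensembl identifier to its symbol, and all 10 were found. The cells were MV4-11, a human acute myeloid leukemia (AML) cell line, from which total RNA was sequenced in 2 control libraries (sh-NC) and 2 libraries with knockdown of the transcription factor IRF1 (sh-IRF1). According to the methods of the study, the hairpins were delivered in the lentiviral pLKO.1 vector and infected cells were selected with puromycin before collection. The sample labels give both groups a wild-type genotype and the control group no treatment, whereas the column names of the table call that group sh-NC. The labels name neither the hairpin in each sh-IRF1 library nor separate cultures for the replicates, so p-values measure the spread between these libraries, which may be technical.

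Myeloid progenitors make primary granules early in their maturation and fill them with myeloperoxidase, serine proteases, lysozyme and small cationic proteins. The proteases are made as inactive precursors, are activated by removal of a dipeptide, and are held in the granule on the proteoglycan serglycin. RNA for these proteins is most abundant at the promyelocyte stage and falls as neutrophils mature, while lysozyme is also made in large amounts by monocytes and the RNases RNASE2 and RNASE3 are best known from eosinophil granules. In AML, myeloperoxidase staining is a classical sign of myeloid lineage.

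Each library held between 17635908 and 18695337 reads over all genes, and mitochondrial genes took between 3.92% and 4.51% of them. The targeted gene IRF1 had 785 and 739 normalized counts in sh-NC and 429.7 and 432 in sh-IRF1 (log2 fold change -0.82, SE 0.0904, limma adjusted p 1.69e-10). A normalized count is the number of reads of a gene divided by 1 size factor per library, as deposited. IRF1 shares 22.9% of its exonic bases with other annotated genes, and the use of strand in counting is not given in the sources used here. Of 8 markers of a monocytic AML line, 7 were above 100 normalized counts in every library, while CD68 was between 5.13 and 25.3. The sum over the 8 markers was 33284 and 33410 in sh-NC against 28484 and 28224 in sh-IRF1. FLT3 made up most of that difference, with 17391 and 17412 against 12745 and 12634. FCGR1A was also lower (1195 and 1278 against 821 and 840), as was HOXA9 (745 and 757 against 703 and 731). The groups overlapped for CD4 (11870.5 and 11661 against 11956 and 11800.2), CD33 (1125 and 1190.4 against 1175 and 1190) and MEIS1 (834 and 936 against 838 and 802). ITGAM was higher in both sh-IRF1 libraries (118 and 166 against 236 and 202), as was CD68 at its low values. For B cells, CD79A had 50.3 and 43.1 in sh-NC against 189.99 and 250.2 in sh-IRF1, COL1A1 as a fibroblast marker was at most 4.97, and no marker of erythroid or T cells was analysed here. The part of these marker differences in the results was not tested.

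Most of the granule protein genes were higher after IRF1 knockdown, and MPO, whose enzyme is a classical sign of myeloid lineage in AML, was lower. Together they took 0.417% and 0.418% of the reads of the sh-NC libraries and 0.515% and 0.506% of those of the sh-IRF1 libraries. All 10 passed the filter on low values, with between 109 and 28647 reads per gene and library. Under limma with Benjamini-Hochberg adjustment over 14120 genes, 7 of the 10 rose (AZU1, ELANE, LYZ, PRTN3, RNASE2, RNASE3 and SRGN), 2 fell (MPO and CFD) and CTSG did not pass the threshold of 0.05. Over all genes tested, 42.2% were called at this threshold, 20.3% as higher and 21.9% as lower. With a log2 fold change beyond 0.5 in addition, 4 granule genes were called higher (LYZ, PRTN3, RNASE2 and RNASE3) and MPO was called lower, against 8.27% and 7.56% of all genes. In bulk RNA, fewer cells that express a gene and less RNA per cell cannot be told apart.

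The groups did not overlap for any of the 10 genes, with 8 higher in both sh-IRF1 libraries and 2 lower, but 69.2% of all genes tested did not overlap either, 34.2% in the upward and 35.0% in the downward direction. The median log2 fold change was 0.24 over the 10 genes and -0.0019 over all genes tested. An exact two-sided permutation test of a single gene has a smallest possible p of 0.333 in this design, so the calls rest on the spread that limma shares between genes. Fold changes are on the scale of log2(normalized count + 1).

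**Figure D1:**
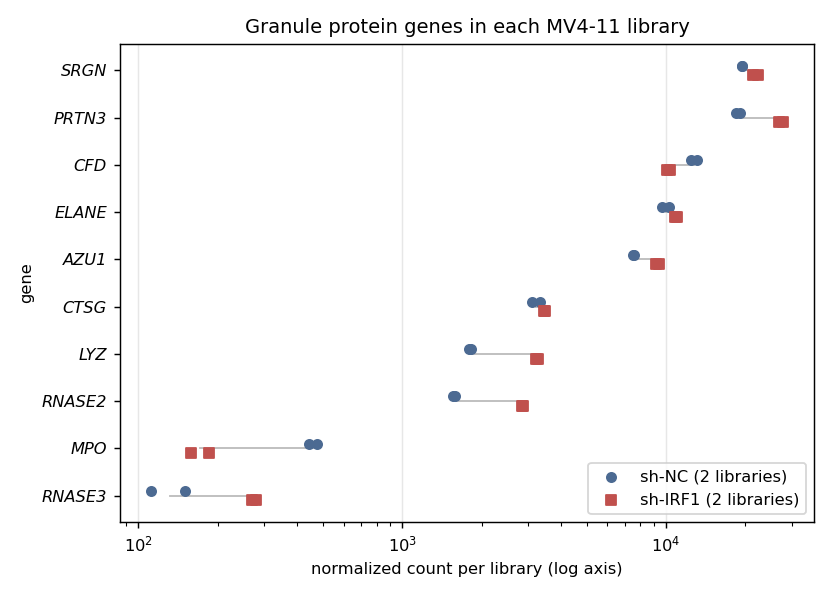
Normalized counts of the granule protein genes (log axis) in each library, with circles for the 2 sh-NC libraries, squares for the 2 sh-IRF1 libraries and a line joining the group means. MPO moved from 477 and 443 down to 185 and 158, while RNASE2, RNASE3, LYZ and PRTN3 moved up with no overlap between groups.

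**Figure D2:**
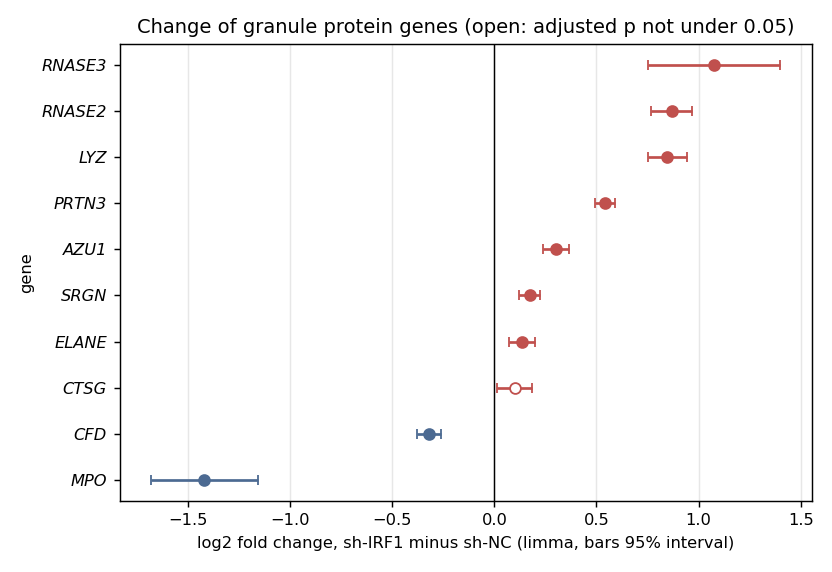
Log2 fold change of each granule protein gene, sh-IRF1 minus sh-NC, from limma, with bars for the 95% interval and an open circle where the adjusted p was not under 0.05. The genes ran from MPO at -1.42 to RNASE3 at 1.08, and CTSG at 0.10 was the only open circle.

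AZU1, PRTN3, ELANE and CFD lie next to each other on the forward strand of chromosome 19. They encode azurocidin, a granule protein related to the serine proteases that lacks protease activity, proteinase 3, neutrophil elastase, and complement factor D (adipsin), the serine protease that cleaves factor B in the alternative pathway. In the GENCODE 44 annotation on GRCh38 the order is AZU1 (chr19:825097-832018), PRTN3 (chr19:840999-848175), ELANE (chr19:851014-856247) and CFD (chr19:859453-867884), with gaps of 8.98, 2.84 and 3.21 kb between them. The first 3 rose and CFD, at the end of the row, fell.

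PRTN3 had 18417 and 19054 normalized counts in sh-NC and 27736 and 26841 in sh-IRF1. Both knockdown libraries were above both controls, and the log2 fold change was 0.54 (SE 0.0251, limma adjusted p 4.33e-23), which put the sh-IRF1 mean at 146% of the control. Of all genes tested, 11.8% had a higher log2 fold change. AZU1 had 7532 and 7582 in sh-NC and 9177 and 9434 in sh-IRF1. Its rise was smaller, with a log2 fold change of 0.30 (SE 0.0315, limma adjusted p 4.40e-11). ELANE had 10270 and 9660 in sh-NC and 11026 and 10844 in sh-IRF1. The groups were apart, but the gap between the nearest libraries of the 2 groups was about as wide as the spread within sh-NC, and the change was the smallest of the genes that passed (log2 fold change 0.13, SE 0.0309, limma adjusted p 3.48e-04).

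CFD had 12449 and 13059 normalized counts in sh-NC and 10375 and 10056 in sh-IRF1. Both knockdown libraries were below both controls, with a log2 fold change of -0.32 (SE 0.0299, limma adjusted p 1.57e-12) and a mean at 80.1% of the control. CFD shares 14.0% of its exonic bases with MED16, which runs into it from the other side and was higher in sh-IRF1. MED16, a Mediator subunit, had 2982 and 2919 in sh-NC and 3753 and 3644 in sh-IRF1 (log2 fold change 0.33, SE 0.0422, limma adjusted p 1.03e-08). Reads on the shared bases could have been given to either gene, and the direction of the change was opposite in the 2.

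Ratios between neighbours within a library do not depend on the size factor. The ratio of PRTN3 to CFD was 1.48 and 1.46 in the sh-NC libraries and 2.67 in both sh-IRF1 libraries. AZU1 to CFD went from 0.605 and 0.581 to 0.885 and 0.938, and ELANE to CFD from 0.825 and 0.740 to 1.06 and 1.08. Thus all 3 ratios to CFD were higher after knockdown, without overlap between the groups. Among the genes that rose, PRTN3 to ELANE went from 1.79 and 1.97 to 2.52 and 2.48, so PRTN3 rose by more than the gene beside it. For each of these ratios an exact two-sided permutation test gave p = 0.333, the smallest value possible with 2 libraries per group.

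The flanking genes did not move as a block. Of 6 tested neighbours within 100 kb of the chromosome 19 genes, 2 rose (MED16 and ARID3A), 2 fell (PLPPR3 and PALM) and 2 did not pass. The shares over all genes tested were 20.3% higher and 21.9% lower. PLPPR3, the nearest tested gene before AZU1, had 16082 and 16987 in sh-NC and 15817 and 15562 in sh-IRF1, with a log2 fold change of -0.08 (SE 0.0276, limma adjusted p 0.0245). That call was lost without sh-NC replicate 2 (-0.04, adjusted p 0.329), without sh-IRF1 replicate 1 (-0.09, adjusted p 0.0991) and without sh-IRF1 replicate 2 (-0.06, adjusted p 0.241), as it was with total read scaling (-0.03, adjusted p 0.383), in edgeR (adjusted p 0.0535) and in DESeq2 (adjusted p 0.06). PTBP1, the splicing regulator on the far side of PLPPR3, had a log2 fold change of 0.01 (SE 0.0268, limma adjusted p 0.747), with a 95% interval from -0.04 to 0.07. PALM rests on few reads, and its call was lost whichever of the 4 libraries was left out, with log2 fold changes from -1.49 to -1.30 and limma adjusted p from 0.0507 to 0.104.

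**Figure D3:**
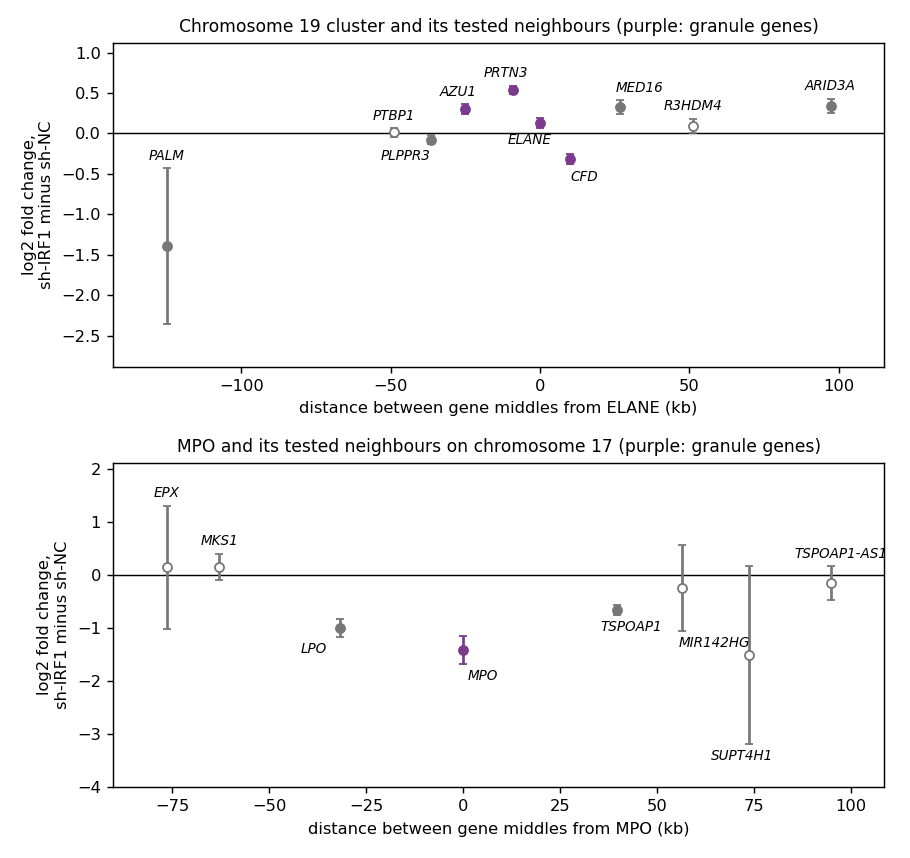
Log2 fold change (limma, bars 95% interval) of the granule protein genes in purple and of their tested neighbours in grey, against the distance in kb between gene middles from ELANE on chromosome 19 (top) and from MPO on chromosome 17 (bottom), with open circles where the adjusted p was not under 0.05. On chromosome 19, AZU1, PRTN3 and ELANE lie above 0 and CFD below it, and on chromosome 17 LPO, MPO and TSPOAP1 lie below 0.

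The RefSeq promoter table (GRCh38.p14) matched 6 of the 10 genes (AZU1, CFD, CTSG, PRTN3, RNASE2 and RNASE3), the others being MPO, ELANE, LYZ and SRGN. The 250 bases before the RefSeq start of AZU1 and PRTN3 are printed because these are neighbouring genes that rose together and both hold the same 8 letters of a C/EBP motif. C/EBP factors are the main activators of primary granule genes together with PU.1, the product of SPI1. Capitals mark matches to the C/EBP letters TTNNGNAA and the PU.1 core GAGGAA, and both sequences read 5′ to 3′ on the forward strand.
AZU1, chr19:827587-827836: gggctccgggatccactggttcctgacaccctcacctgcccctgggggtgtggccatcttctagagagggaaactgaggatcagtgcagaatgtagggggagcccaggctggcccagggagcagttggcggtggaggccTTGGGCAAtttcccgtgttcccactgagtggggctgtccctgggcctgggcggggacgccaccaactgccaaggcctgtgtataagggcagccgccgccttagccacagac
PRTN3, chr19:840749-840998: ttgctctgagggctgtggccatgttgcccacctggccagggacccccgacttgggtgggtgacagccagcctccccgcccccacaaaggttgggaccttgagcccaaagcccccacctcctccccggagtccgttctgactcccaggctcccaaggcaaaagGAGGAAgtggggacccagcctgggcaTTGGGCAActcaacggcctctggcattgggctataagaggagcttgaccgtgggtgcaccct
The letters TTGGGCAA stood at -111 to -104 in AZU1 and at -62 to -55 in PRTN3, counted from the start as 0, and PRTN3 also held GAGGAA at -88 to -83. Outside such short stretches the windows were not alike, with 135 identical bases of 220 aligned (61.4%). The RefSeq start of AZU1 lies inside the GENCODE 44 gene model given above, downstream of its first base. The CFD window held neither motif.

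Over the 6 promoter windows of 300 bases (250 before the start and 50 after it), searched on both strands, the C/EBP letters matched in 5 (all but CFD) against 37.2% of 27305 promoters in the table. The PU.1 core matched in 2 (CTSG and PRTN3) against 27.6% of all promoters. The MYB letters AACNG matched in 5 against 77.1%, and in RNASE2 and RNASE3 matches on the 2 strands overlapped each other. The interferon regulatory factor motif, GAAA repeated after a gap of 2 bases, matched in 0 against 3.65%, and TATAAA in 0 against 12.0%. These matches describe letters in the windows and not binding. The counts hold RNASE2 and RNASE3 as separate windows, although the 250 bases before their starts are nearly the same (192 of 199 aligned bases identical). MPO, ELANE, LYZ and SRGN had no window, and the difference from the share of all promoters was not tested.

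CTSG encodes cathepsin G, the chymotrypsin-like member of the neutrophil serine proteases, and lies apart from the others on chromosome 14 (chr14:24573518-24576250, reverse strand). It had 3340 and 3115 normalized counts in sh-NC and 3472 and 3442 in sh-IRF1. The knockdown libraries were above the controls, but the 2 controls lay farther apart than the nearest libraries of the 2 groups. The log2 fold change was 0.10 (SE 0.043, limma adjusted p 0.0571), with a 95% interval from 0.01 to 0.19. The call changed with the controls used, since without sh-NC replicate 1 the log2 fold change was 0.15 (adjusted p 0.00897) and without sh-NC replicate 2 it was 0.05 (adjusted p 0.475).

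MPO encodes myeloperoxidase, the heme enzyme that makes hypochlorous acid from chloride and hydrogen peroxide, and lies on the reverse strand of chromosome 17 (chr17:58269855-58280935). It had 477 and 443 normalized counts in sh-NC and 185 and 158 in sh-IRF1. Both knockdown libraries were far below both controls, and the mean was 37.3% of the control. The log2 fold change was -1.42 (SE 0.13, limma adjusted p 7.78e-13), and 1.43% of all genes tested had a lower one. Relative to PRTN3 in the same library, MPO went from 0.0259 and 0.0232 to 0.00667 and 0.0059 (exact permutation p = 0.333, the smallest possible).

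The gene beside MPO fell with it. LPO encodes lactoperoxidase, a peroxidase of secretions, and lies 1.34 kb from MPO. Its annotated span overlaps that of MKS1 on the other strand, and the share of exonic bases was not measured. LPO had 1064 and 1007 normalized counts in sh-NC and 551 and 478 in sh-IRF1 (log2 fold change -1.01, SE 0.0832, limma adjusted p 2.96e-14). LPO fell by less than MPO, since the ratio of MPO to LPO went from 0.448 and 0.440 to 0.336 and 0.331 (exact permutation p = 0.333, the smallest possible). On the other side TSPOAP1, which encodes a protein that binds the mitochondrial translocator protein, had 3129 and 2978 in sh-NC and 1869 and 1985 in sh-IRF1 (log2 fold change -0.66, SE 0.0484, limma adjusted p 5.57e-16). The span of TSPOAP1 overlaps that of TSPOAP1-AS1 on the other strand, and their share of exonic bases was not measured either. Of 7 tested neighbours within 100 kb, 0 rose, LPO and TSPOAP1 fell and 5 did not pass, against 20.3% higher and 21.9% lower over all genes tested. EPX, which encodes the eosinophil peroxidase and lies in the same region, was near the limit of the filter with between 10.3 and 14.4 normalized counts in every library (log2 fold change 0.14, SE 0.577, limma adjusted p 0.872).

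Myeloperoxidase needs heme and the chaperones of the endoplasmic reticulum for its maturation. Of 12 genes of heme synthesis and MPO folding, 5 rose (CALR, CPOX, ALAS1, UROD and ALAD), CANX fell and 6 did not pass. The median log2 fold change was 0.14. Over all genes tested, 42.2% were called, 20.3% as higher and 21.9% as lower. CALR, the chaperone calreticulin, had 10410 and 10437 in sh-NC and 17960 and 17577 in sh-IRF1 (log2 fold change 0.77, SE 0.0275, limma adjusted p 2.13e-27). CANX, the related membrane chaperone calnexin, had 14792 and 15333 in sh-NC and 12316 and 12177 in sh-IRF1 (log2 fold change -0.30, SE 0.028, limma adjusted p 1.63e-12). CPOX, a mitochondrial enzyme of heme synthesis, went from 965 and 846 to 1662 and 1609 (log2 fold change 0.85), and ALAS1, the housekeeping form of the first enzyme of the pathway, from 1636 and 1559 to 2128 and 2301 (log2 fold change 0.47). The UROD call was lost without sh-IRF1 replicate 1 (log2 fold change 0.23, limma adjusted p 0.0888).

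LYZ encodes lysozyme, which breaks the peptidoglycan of bacterial walls, and lies at chr12:69348381-69354234. It had 1824 and 1785 normalized counts in sh-NC and 3276 and 3219 in sh-IRF1. The libraries of each group lay close together and far from the other group, with a log2 fold change of 0.85 (SE 0.0471, limma adjusted p 3.83e-20) and a mean at 180% of the control. A long noncoding RNA gene overlaps 34.7% of its exonic bases, so reads of the 2 cannot be told apart where strand was not used, and 8.60% of its 50-base stretches occur in transcripts of other genes. CPSF6, a cleavage factor of messenger RNA 3′ ends and the nearest tested gene on one side, fell from 3153 and 3323 to 2670 and 2595 (log2 fold change -0.30, SE 0.0446, limma adjusted p 2.70e-07). YEATS4, a chromatin reader on the other side, went from 652 and 641 to 563 and 559 (log2 fold change -0.20, SE 0.0877, limma adjusted p 0.0567, and 0.0471 with a filter at 50). LYZ thus rose between a gene that fell and a gene that did not pass.

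RNASE2 and RNASE3 encode the eosinophil-derived neurotoxin and the eosinophil cationic protein, secreted RNases of the RNase A family that arose by a gene duplication. They lie on the forward strand of chromosome 14 (RNASE3 at chr14:20891385-20892348, RNASE2 at chr14:20955487-20956436), 63.1 kb apart. The 250 bases before their RefSeq starts are printed because the sequences are nearly the same and the RNAs rose together. Capitals mark the C/EBP letters, which here stand on the opposite strand.
RNASE3, chr14:20891135-20891384: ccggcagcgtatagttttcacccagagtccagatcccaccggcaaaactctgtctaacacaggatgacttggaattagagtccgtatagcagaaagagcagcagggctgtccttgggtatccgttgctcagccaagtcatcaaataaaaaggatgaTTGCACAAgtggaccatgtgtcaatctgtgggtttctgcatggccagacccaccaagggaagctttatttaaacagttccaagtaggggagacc
RNASE2, chr14:20955237-20955486: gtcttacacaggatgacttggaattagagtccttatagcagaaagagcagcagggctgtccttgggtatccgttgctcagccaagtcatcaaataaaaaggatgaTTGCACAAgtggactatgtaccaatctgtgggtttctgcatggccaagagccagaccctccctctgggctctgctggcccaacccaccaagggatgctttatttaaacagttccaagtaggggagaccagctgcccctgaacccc
In a global alignment 192 of 199 aligned bases were identical (96.5%), with 102 columns opened as gaps because the starts are offset and RNASE2 holds extra bases. The letters TTGCACAA stood at -94 to -87 in RNASE3 and at -145 to -138 in RNASE2.

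RNASE2 had 1585 and 1554 normalized counts in sh-NC and 2857 and 2876 in sh-IRF1. Its groups were far apart relative to the replicates, with a log2 fold change of 0.87 (SE 0.0496, limma adjusted p 9.65e-20) and a mean at 183% of the control. RNASE3 had 151 and 112 in sh-NC and 280 and 271 in sh-IRF1. It had few reads and the widest relative spread of the granule genes in sh-NC, and its log2 fold change was 1.08 (SE 0.161, limma adjusted p 2.49e-07), higher than in all but 3.14% of the genes tested. The ratio of RNASE2 to RNASE3 was 10.5 and 13.9 in the sh-NC libraries and 10.2 and 10.6 in the sh-IRF1 libraries, a log2 difference of -0.21. The ratios of the groups overlapped, and an exact permutation test could not reach the threshold with 2 libraries per group.

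Because of the duplication, reads can be shared. Of the 50-base stretches of RNASE2, 18.2% also occur in transcripts of RNASE3 or of the pseudogene RNASE2CP. Of those of RNASE3, 5.26% occur in RNASE2 or RNASE2CP. These shares do not bound the error of the counts, because the genes differ widely in level. RNASE2 had 1545 and 1513 reads in sh-NC and RNASE3 had 147 and 109. How many RNASE2 reads entered the counts of RNASE3 or RNASE2CP was not tested. RNASE2CP, the nearest tested gene to RNASE3, had 104 and 95.5 in sh-NC and 136 and 147 in sh-IRF1 (log2 fold change 0.50, SE 0.193, limma adjusted p 0.0315). This call was lost without sh-NC replicate 2 (0.45, adjusted p 0.108), without sh-IRF1 replicate 1 (0.56, adjusted p 0.0898) and without sh-IRF1 replicate 2 (0.45, adjusted p 0.186), and in DESeq2 (adjusted p 0.0899). METTL17, a factor of mitochondrial translation beyond RNASE2, had a log2 fold change of -0.10 (SE 0.0878, limma adjusted p 0.381).

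Of the other 12 genes of the RNase A family and its inhibitor, RNASE6 and RNH1 were tested and both rose, against 20.3% called higher over all genes tested. RNASE6, an antimicrobial RNase of monocytes, went from 368 and 374 to 598 and 556 (log2 fold change 0.63, SE 0.1, limma adjusted p 8.44e-07). RNH1, the cytosolic inhibitor that binds RNases of this family, went from 11631 and 11098 to 13245 and 13249 (log2 fold change 0.22, SE 0.029, limma adjusted p 1.35e-08). Another 4 of the list were below the filter, including RNASE1 with 3, 2, 5 and 13 reads, and 6 were not analysed here.

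SRGN encodes serglycin, the proteoglycan core protein whose sulfated chains hold proteases in the granule, and lies at chr10:69088103-69104805. It had 19452 and 19335 normalized counts in sh-NC and 22363 and 21407 in sh-IRF1. Both knockdown libraries were above the controls, with a log2 fold change of 0.17 (SE 0.0255, limma adjusted p 1.74e-07) and a mean at 113% of the control. Of its 3 tested neighbours, SUPV3L1, a mitochondrial RNA helicase, fell (log2 fold change -0.44, limma adjusted p 5.22e-05), while KIFBP and VPS26A, the nearest on each side, had log2 fold changes of 0.22 (SE 0.111, limma adjusted p 0.1, and 0.0455 with total read scaling) and 0.02 (SE 0.052, limma adjusted p 0.765). Over all loci, 21 of 69 annotated neighbours within 100 kb were tested, of which 3 rose, 6 fell and 12 did not pass. Of all genes tested, 42.2% were called, 20.3% as higher and 21.9% as lower.

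Per length, the genes differed over a wide range and largely kept their order. In normalized counts per kb of exonic length, the sh-NC means ran from PRTN3 (16925) through SRGN (15936), ELANE (9694), CFD (7015), AZU1 (4241), CTSG (2359), RNASE2 (2180), LYZ (1047) and RNASE3 (179) down to MPO (104). No 2 neighbours in that order overlapped between libraries within sh-NC, the closest as a ratio being CTSG at 2277 to 2442 and RNASE2 at 2158 to 2201. Exonic length was the union of all annotated exons of a gene, which may differ from the length of the RNA made. The library ranges do not cover that error, so the order of genes with close values is uncertain. In sh-IRF1 the order was the same except that RNASE2, at 3968 to 3994, stood above CTSG, at 2516 to 2538. MPO, the lowest of the 10 per kb in both groups, was at 38.8 in sh-IRF1, and its share of the reads of the 10 genes went from 0.608% to 0.191%. PRTN3 went from 24.8% to 30.4% of these reads and CFD from 16.9% to 11.4%.

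Of 8 other primary granule genes, 4 were tested, of which PRSS57, CD63 and GUSB rose and BPI fell. The median log2 fold change was 0.53, and the 4 defensin genes of the list were not analysed here. Over all genes tested, 20.3% were called higher and 21.9% lower. PRSS57, a serine protease of neutrophil granules, went from 4835 and 4553 to 6778 and 6899 (log2 fold change 0.54, SE 0.0363, limma adjusted p 2.75e-17). GUSB, the lysosomal beta-glucuronidase, went from 1977 and 1926 to 2966 and 2871 (log2 fold change 0.58, SE 0.0476, limma adjusted p 2.63e-14), and CD63, a membrane protein of primary granules, from 2410 and 2335 to 3406 and 3339 (log2 fold change 0.51, SE 0.0446, limma adjusted p 2.22e-13). BPI, the bactericidal permeability-increasing protein, had 25 reads in the sh-NC libraries together and 1 in the sh-IRF1 libraries, a ratio of normalized counts of 0.0376 with an exact 95% interval from 0.000916 to 0.23 that covers counting error only. The BPI call was lost without sh-NC replicate 1 (limma log2 fold change -3.0, adjusted p 0.205) and without sh-NC replicate 2 (-3.54, adjusted p 0.0556).

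Of 16 genes of the secondary and tertiary granules, which form later in neutrophil maturation, 4 were tested, 9 were below the filter and 3 were not analysed here. MMP9, the gelatinase of tertiary granules, had 209 and 193 normalized counts in sh-NC and 28.8 and 11.2 in sh-IRF1 (log2 fold change -3.40, SE 0.298, limma adjusted p 2.08e-13), and the log2 fold change was -4.04 without sh-IRF1 replicate 1 and -2.76 without sh-IRF1 replicate 2. MMP25, a membrane-bound metalloprotease of neutrophils, went from 295 and 277 to 209 and 183 (log2 fold change -0.55, SE 0.14, limma adjusted p 0.00121). The groups did not overlap for either, and both share exonic bases with an antisense gene, 18.4% of MMP9 and 30.6% of MMP25. SLPI, a secreted inhibitor of elastase and cathepsin G, had 2.05 and 10.3 in sh-NC and 67.6 and 59.97 in sh-IRF1 (log2 fold change 3.46, SE 0.518, limma adjusted p 2.69e-07), which rests on 2 and 10 control reads and was 2.52 without sh-NC replicate 1 and 4.41 without sh-NC replicate 2. ORM1, an acute phase protein, went from 10.3 and 4.11 to 22.9 and 28.1 (log2 fold change 1.80, SE 0.581, limma adjusted p 0.0103), a call that was lost without sh-NC replicate 2 (1.23, adjusted p 0.0865), without sh-IRF1 replicate 1 (1.94, adjusted p 0.0695) and without sh-IRF1 replicate 2 (1.65, adjusted p 0.14). Below the filter, LCN2, the siderophore-binding lipocalin, had 0 reads in the sh-NC libraries and 8 in each sh-IRF1 library. Its sh-IRF1 mean was 2.51-fold a floor of 3 reads per sh-NC library, a value that leaves out counting error. LTF, the lactoferrin of secondary granules, had at most 3 reads in any library. Of the eosinophil, basophil and mast cell list, 1 of 10 genes was tested (EPX, above), and of 8 lymphoid granule genes PRF1 and NKG7 were tested and neither passed (log2 fold changes -0.85 and -0.12, limma adjusted p 0.155 and 0.167).

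Inhibitors of the granule proteases moved in both directions. Of 12 genes of protease activation and inhibition, 8 were tested, 4 rose (SLPI, CST7, SERPINB8 and CTSC), 2 fell (SERPINA1 and SERPINB6) and 2 did not pass. The median log2 fold change was 0.06. Over all genes tested, 20.3% were called higher and 21.9% lower. CST7, which encodes cystatin F, an inhibitor of the cathepsin C that activates the serine proteases, went from 308 and 333 to 653 and 652 (log2 fold change 1.03, SE 0.101, limma adjusted p 7.03e-12). SERPINB6, a cytosolic inhibitor of cathepsin G, went from 990 and 946 to 611 and 673 (log2 fold change -0.59, SE 0.0786, limma adjusted p 1.79e-08), and SERPINA1, the alpha-1-antitrypsin that inhibits elastase, from 485 and 410 to 264 and 233 (log2 fold change -0.84, SE 0.121, limma adjusted p 1.12e-07). SERPINB1, the cytosolic inhibitor of elastase, proteinase 3 and cathepsin G, had a log2 fold change of -0.0039 (SE 0.059, limma adjusted p 0.966), with a 95% interval from -0.12 to 0.11. CTSC itself had a log2 fold change of 0.12 (limma adjusted p 0.0151), which was lost without sh-NC replicate 2 (0.09, adjusted p 0.0994) and without sh-IRF1 replicate 1 (0.08, adjusted p 0.242).

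Of 21 genes of granule sorting, storage and release, 20 were tested, 8 rose, 4 fell and 8 did not pass. The median log2 fold change was 0.14. Over all genes tested, 20.3% were called higher and 21.9% lower. VPS13B, a lipid transfer protein whose loss causes neutropenia, went from 1928 and 2007 to 2948 and 3222 (log2 fold change 0.65, SE 0.0489, limma adjusted p 1.79e-15). RAB27A, the GTPase that docks granules for release, went from 2612 and 2410 to 2071 and 2152 (log2 fold change -0.25, SE 0.0498, limma adjusted p 5.22e-05), whereas UNC13D, a priming factor that binds it, went from 3831 and 3700 to 4805 and 4881 (log2 fold change 0.36, SE 0.0388, limma adjusted p 7.20e-11). LYST, the gene of the giant-granule disorder Chediak-Higashi syndrome, went from 5008 and 5259 to 4531 and 4640 (log2 fold change -0.16, SE 0.0377, limma adjusted p 4.01e-04). With scaling by total reads, 13 genes of this list were called higher, and in DESeq2 7 were.

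Of 12 transcription factors of granule genes, 11 were tested, SPI1 rose, 5 fell (CEBPB, CBFB, KLF4, GFI1 and CEBPA) and 5 did not pass. The median log2 fold change was -0.12. Over all genes tested, 20.3% were called higher and 21.9% lower. With a log2 fold change beyond 0.5 in addition, 0 of these factors were called higher and 2 lower. SPI1, which encodes PU.1, went from 5719 and 5473 to 6247 and 6376 (log2 fold change 0.17, SE 0.0353, limma adjusted p 6.46e-05). CEBPB, the C/EBP factor of monocytes and of emergency granulopoiesis, went from 3012 and 3093 to 1906 and 1912 (log2 fold change -0.68, SE 0.0472, limma adjusted p 1.18e-16), and CBFB, the partner of RUNX1, from 3310 and 3306 to 2522 and 2762 (log2 fold change -0.33, SE 0.0457, limma adjusted p 6.41e-08). CEBPA, the C/EBP factor needed to form granulocyte progenitors, had a log2 fold change of -0.11 (SE 0.0316, limma adjusted p 0.00294), a call lost without sh-IRF1 replicate 1 (-0.09, adjusted p 0.0945) and with scaling by total reads (-0.07, adjusted p 0.0709). It shares 43.9% of its exonic bases with antisense genes, and CEBPB shares 12.6%. MYB, RUNX1 and IRF8 had log2 fold changes of -0.01 (95% interval -0.08 to 0.06), -0.01 (-0.08 to 0.05) and -0.03 (-0.10 to 0.04), with limma adjusted p of 0.84, 0.756 and 0.509.

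**Figure D4:**
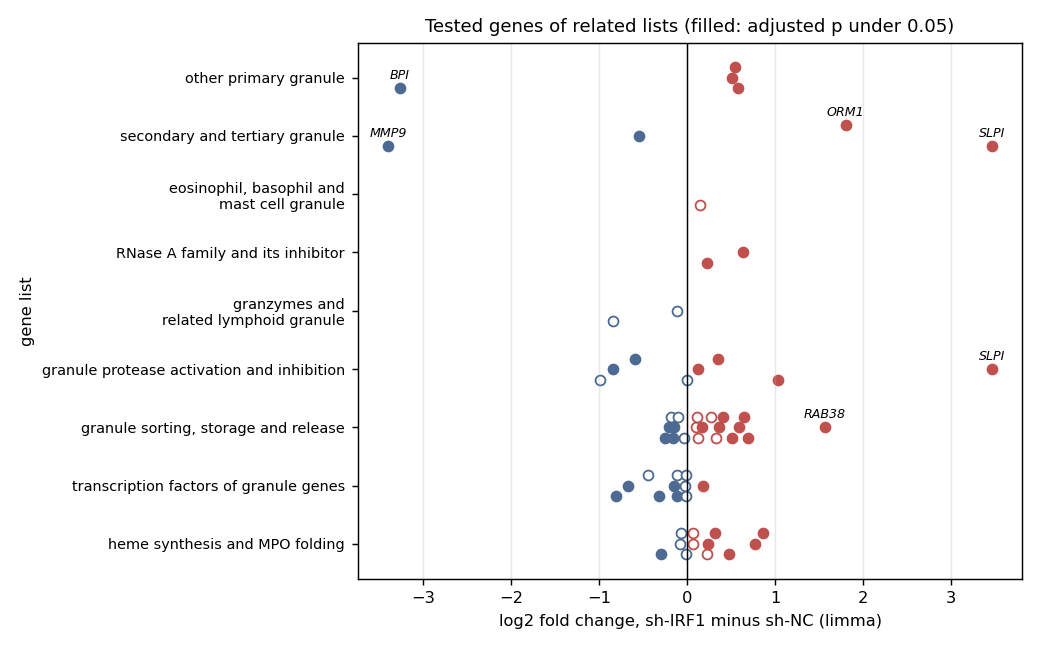
Log2 fold change (sh-IRF1 minus sh-NC, limma) of every tested gene in the 9 related lists, 1 point per gene and list, red above 0 and blue below it, filled where the adjusted p was under 0.05. CD63, SLPI and GFI1 each stand in more than 1 list and are drawn in each. The tested genes of the RNase A list lie above 0, the secondary and tertiary granule list runs from MMP9 at -3.40 to SLPI at 3.46, and the transcription factors lie mostly at or below 0.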

How the data were processed

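RNA-seq libraries of MV4-11 cells, 2 sh-NC and 2 sh-IRF1, were analysed from the deposited table. The submitters' processing notes list HISAT2 2.0.5 and hg38. The counting tool, its annotation and whether strand was used are not given in the sources used here. The values are a normalized signal that the authors made by dividing reads by 1 size factor per library. Reads were recovered (100% of values whole, tolerance 0.001 read) and summed to between 17635908 and 18695337 per library, and the table had 0 further per-sample columns. Replicates differed by more than counting error (chi-square per gene 2.52 in sh-NC and 2.37 in sh-IRF1), so all 4 libraries were kept.

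The 14120 of 23622 genes that reached a value of 10 in 2 or more libraries were tested with limma 3.58.1 (R 4.3.3, trend and robust) on log2(value + 1), with Benjamini-Hochberg adjustment and a threshold of 0.05. The shared spread had a median of 43 prior degrees of freedom. Symbols matched 23456 identifiers. Positions and exonic overlaps came from GENCODE 44 (GRCh38), promoters from RefSeq (GRCh38.p14), aligned with Biopython 1.88 (Python 3.11.15). The genes and lists were chosen with earlier results of these data known. Named were the 10 genes, IRF1, the 2 genes with the smallest p per direction and list, and the nearest tested neighbours. The genes named beyond that (such as SERPINB1, MYB, RUNX1, IRF8, EPX, PTBP1, PALM, ARID3A, SUPV3L1, KLF4, GFI1, CEBPA, ALAS1, ALAD, UROD, CTSC, SERPINB8, UNC13D, PRF1, NKG7, RNASE1, LCN2 and LTF), the ratios and the promoters shown were chosen after values were seen. Alternatives covered scaling, filter, pseudocount, edgeR 4.0.16 and DESeq2 1.42.0 on the recovered reads, non-robust shrinkage, a replicate block, a minimum fold change and leaving out each library. The test was checked only on simulated data with a constant spread and changes larger than those of most granule genes. Smaller changes were not checked. Intervals of read ratios cover counting error only. A further marker gene is not reported here.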

Additional observations from a re-analysis of the deposited data

How the results depend on the processing

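The 10 granule genes kept their direction under every alternative run, and 145 of their values under alternatives stayed on the same side of the threshold. The other 5 values were of CTSG, which passed with total read scaling (adjusted p 0.00477), with a filter at 50 (0.0449), in edgeR's quasi-likelihood test (0.0433), with the replicate block (0.0398) and without sh-NC replicate 1 (0.00897), and not in DESeq2 (0.122). Same-numbered libraries did not deviate together (r = -0.0154 over 14120 genes), so the main fit did not pair them. That check rests on a single replicate difference in each group. It cannot show whether same-numbered libraries were prepared together. With the replicate block 8 granule genes were called higher and 2 lower, and 2903 and 3147 of all genes. Total read scaling moved the median of the granule genes to 0.28 and that of all genes by 0.044.

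With a log2 fold change beyond 0.5 the counts of higher and lower calls were 4 and 1 of the granule genes, 1168 and 1067 of all genes, 1 higher in the RNase A list, 2 higher in the protease list, 5 and 0 in the sorting list, 0 and 2 among transcription factors, 2 and 0 in the heme list, and 1 and 3 among neighbours. Total read scaling called 13 of the sorting list and 5 neighbours higher. With a filter at 50, 0 of the other primary granule genes were lower and 1 secondary or tertiary granule gene was higher. DESeq2 also called 0 of the other primary granule genes lower. Leaving out 1 library gave between 0 and 1 lower in the first of these lists, between 1 and 2 higher in the second, and between 2037 and 2685 higher and between 2405 and 2744 lower over all genes.

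Directions that turned were all of genes that did not pass. Total read scaling gave 0.014 for IRF8, 0.034 for MYB, 0.031 for RUNX1 and 0.041 for SERPINB1, and edgeR gave 0.0021 for SERPINB1. Leaving out 1 library gave between -0.085 and 0.36 for EPX, -0.025 and 0.0045 for MYB, -0.044 and 0.016 for RUNX1, -0.051 and 0.044 for SERPINB1, and -0.011 and 0.055 for VPS26A. Of the other named genes, 28 values fell short of the threshold that the reported value passed, and 2 passed where the reported value did not. The causes were not tested. Genes under the filter, such as LCN2 with 0 and 16 reads in the groups, are given by their reads and not by a test.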
